A study of Homo sapiens with 6 samples.

Results

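The 10 genes described here encode the proximal signalling machinery of the T-cell receptor: the kinases LCK, FYN and ZAP70, the effector enzymes PLCG1 and VAV1, the adaptors LAT and LCP2, and the negative regulators SIT1, PTPN22 and UBASH3A. They were chosen by symbol, and each matched 1 row of the 60856 features in the deposited tables of counts and TPM. All 10 passed the filter on low counts, among 15490 genes tested. Messenger RNA had been sequenced from Jurkat cells, a human leukemic T lymphocyte line labelled as wild type, in 3 libraries from cells given BPAF at 1 µM (bisphenol AF, the hexafluoro relative of bisphenol A) and 3 from cells given the solvent DMSO at 0.1%. The sample labels give an exposure of 12 h and the treatment protocol gives 24 h. All libraries came from the same line grown in the same medium, the labels name no stimulation of the receptor, and the labels do not state whether BPAF cultures also held DMSO. The series title places the study in estrogen signalling and inflammation, and the comparison of BPAF with DMSO asks here whether the transcripts of the receptor's first signalling step differed.

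When a T-cell receptor meets its ligand, LCK, with FYN as a second kinase of the SRC family, phosphorylates the CD3 and zeta chains, and ZAP70 docks there and is activated. ZAP70 then phosphorylates the membrane adaptor LAT and the cytosolic adaptor LCP2 (the protein SLP-76), which hold PLCG1 and VAV1 near the receptor. PLCG1 makes the second messengers that raise calcium and activate RAS, and VAV1 activates RAC and reorganises actin. SIT1 is a transmembrane adaptor that dampens receptor signalling, PTPN22 is a phosphatase that acts on LCK and ZAP70, and UBASH3A is a ubiquitin-binding protein of the same inhibitory layer. Jurkat cells and lines derived from them were the material in which much of this order was worked out.

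BPAF libraries held 21378320, 20253656 and 22617613 counts, and DMSO libraries held 22117976, 20745097 and 20935609. All 17 T-lineage markers had a mean of at least 1 TPM (a transcript level scaled for gene length and library total), and their summed level was 4537 to 4701 TPM in BPAF and 4366 to 4623 TPM in DMSO. Of 10 myeloid markers, 0 reached a mean of 1 TPM. The same count was 2 of 8 for B cells (CD79A and BLK), 2 of 8 for natural killer cells and 2 of 10 for epithelial or stromal cells. Fewer cells of a type and less RNA per cell cannot be told apart in bulk libraries such as these.

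SIT1 was the 1 member whose transcript passed the test, and it was lower in BPAF. Its promoter is shown because of that call, in the 300 bases around the start site in the RefSeq annotation (GRCh38.p14, chr9:35650882-35651181, minus strand, written 5′ to 3′ along the gene), with the 1 match to the ETS core motif AGGAAG in capitals (it lies on the opposite strand, as CTTCCT, 35 to 30 bases before the start).
SIT1: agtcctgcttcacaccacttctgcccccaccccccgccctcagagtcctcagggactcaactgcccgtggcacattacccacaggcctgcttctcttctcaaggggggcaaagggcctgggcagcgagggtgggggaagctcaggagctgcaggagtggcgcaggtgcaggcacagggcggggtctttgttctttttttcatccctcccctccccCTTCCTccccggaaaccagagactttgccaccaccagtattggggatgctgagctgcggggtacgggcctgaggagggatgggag
RefSeq windows of 250 bases before to 50 after a start site were found for 9 of the 10 genes, 16 windows in all, with no entry for UBASH3A. The ETS core AGGAAG, bound by factors such as ETS1, was present on either strand in windows of 7 of the 9 genes, against 33.6% of all 35116 windows. That count is over genes, several of which have more than 1 window, and 8 of the 16 windows held it.

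An 8-base run that joins an ETS core to part of a RUNX site, GGAAGTGG, was present in windows of LCK, LCP2 and VAV1, 3 of 16 windows against 4.15% of all windows. It overlaps AGGAAG where an A precedes it, as it does in these 3 windows. They are shown for this shared run, in capitals, from chr1:32274000-32274059 (LCK, plus strand), chr5:170297822-170297881 (LCP2, minus strand) and chr19:6772673-6772732 (VAV1, plus strand).
LCK: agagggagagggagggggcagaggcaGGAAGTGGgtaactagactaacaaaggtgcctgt
LCP2: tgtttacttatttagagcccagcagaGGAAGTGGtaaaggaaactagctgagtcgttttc
VAV1: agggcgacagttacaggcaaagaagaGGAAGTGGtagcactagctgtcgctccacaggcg
The palindromic estrogen response element (GGTCA, any 3 bases, TGACC) and its single arm AGGTCA, which overlaps the palindrome where an A precedes it, were present in 0 of the 16 windows, against 0.0570% and 13.8% of all windows. These letters are therefore not in the windows searched, which says nothing of receptor binding. The AP-1 motif TGANTCA, bound by FOS and JUN proteins, was present in 2 of 16 windows, against 7.71% of all windows. Both are shown with the motif in capitals: that of LAT lies 78 to 72 bases before the start (chr16:28984699-28984757, plus strand), and that of ZAP70 lies just inside the transcript from the most downstream of its 3 listed starts (chr2:97733310-97733349, plus strand).
LAT: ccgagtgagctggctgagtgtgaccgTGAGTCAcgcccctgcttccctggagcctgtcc
ZAP70: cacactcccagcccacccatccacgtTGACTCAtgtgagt
Neither LAT nor ZAP70 passed the test between BPAF and DMSO.

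Levels of the 10 transcripts spanned a wide range and kept nearly the same order in every library. LCK was the most abundant, with 581, 573 and 576 TPM in BPAF and 546, 592 and 549 TPM in DMSO, at percentile 98.5 of the tested genes by mean TPM. ZAP70 followed with 379, 376 and 388 TPM in BPAF and 339.9, 372 and 350.4 TPM in DMSO. Together these kinases made up 61.4% to 62.1% of the summed TPM of the 10 genes in BPAF libraries and 61.5% to 62.0% in DMSO libraries.

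The effector and adaptor genes lay in the middle of the range. PLCG1 averaged 142 ± 5.14 TPM in BPAF and 128 ± 12.8 TPM in DMSO (SD, n = 3 each, as for all means here), and LAT averaged 124 ± 5.11 TPM in BPAF and 118 ± 3.10 TPM in DMSO. FYN averaged 91.4 ± 4.26 TPM in BPAF and 82.0 ± 4.11 TPM in DMSO. VAV1 averaged 83.5 ± 3.39 TPM in BPAF and 80.6 ± 2.98 TPM in DMSO. LCP2 averaged 61.5 ± 4.89 TPM in BPAF and 60.5 ± 2.14 TPM in DMSO. The inhibitory genes were the least abundant: SIT1 averaged 50.3 ± 1.47 TPM in BPAF and 57.7 ± 3.12 TPM in DMSO. UBASH3A averaged 27.9 ± 0.27 TPM in BPAF and 25.6 ± 1.38 TPM in DMSO, and PTPN22 averaged 13.9 ± 1.13 TPM in BPAF and 12.96 ± 0.36 TPM in DMSO. PTPN22 lay at percentile 50.7 of the tested genes. SIT1, UBASH3A and PTPN22 together made up 5.87% to 6.05% of the members' summed TPM in BPAF libraries and 6.37% to 6.67% in DMSO libraries, without overlap between the groups. SIT1 alone of the 3 had a lower mean TPM in BPAF, and the means of UBASH3A and PTPN22 were higher there.

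**Figure D1:**
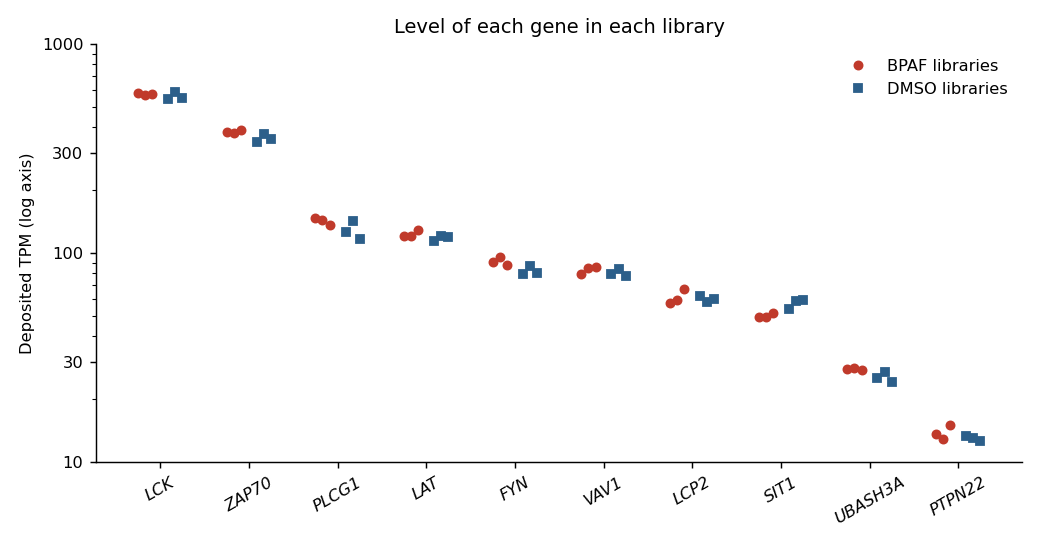
Deposited TPM (log axis) of the 10 genes, ordered by their mean over the 6 libraries. Each point is 1 library, circles for BPAF and squares for DMSO. LCK (546 to 592 TPM) and ZAP70 (339.9 to 388 TPM) stand above the other genes, and PTPN22 (12.6 to 15.1 TPM) is lowest.

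Of the 9 neighbouring pairs in that order, 3 had ranges over the 6 libraries that overlapped. Over all libraries their order therefore rests on differences within the spread. These were PLCG1 over LAT, FYN over VAV1 and LCP2 over SIT1, and in each pair the first was higher in 5 of 6 libraries. The reversed library was a DMSO one each time, and within BPAF the ranges of each pair did not overlap. The other 6 neighbours kept their order in 6 of 6 libraries without overlap. LCK was 1.55 times ZAP70 and ZAP70 was 2.72 times PLCG1 by mean TPM.

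Relatives of these genes that serve other receptors or cell types were mostly far lower. ZAP70 was 11.1 times its paralogue SYK, the kinase that takes the same position in B cells, which stood at 34.3, 33.9 and 34.7 TPM in BPAF and 33.2, 29.9 and 33.3 TPM in DMSO. VAV1 was 2.72 times VAV3 and 10.02 times VAV2. PLCG1 was 21.3 times PLCG2, the B-cell and myeloid isoform, and LAT was 69.6 times LAT2. Among SRC family kinases other than LCK and FYN, SRC, YES1 and BLK ranged from 7.50 to 12.7 TPM over the 6 libraries, and LYN stayed at or below 0.04 TPM. BLNK, the B-cell counterpart of LCP2, ranged from 0.03 to 0.26 TPM. PTPN22 had 0.633 times the mean TPM of PTPN18, a phosphatase of the same subfamily, and was the lower of the pair in 6 of 6 libraries. Of the 13 relatives listed, 11 were tested and 0 passed in edgeR, with 1 unadjusted p under 0.05, that of YES1 (log2 fold change 0.18, adjusted p = 0.155).

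Exposure to BPAF was accompanied by a lower SIT1 transcript, while the other 9 members did not pass. SIT1 (ENSG00000137078, a protein-coding gene of GENCODE release 29 at chr9:35649295-35650950 of GRCh38, minus strand) had 33.1, 34.6 and 34.7 CPM (counts scaled to TMM-adjusted library size) in BPAF, against 37.9, 40.7 and 43.6 CPM in DMSO. Every BPAF library was below every DMSO library. The means were 34.1 ± 0.92 CPM in BPAF and 40.7 ± 2.84 CPM in DMSO. This was a fall of 16.1%, a log2 fold change of -0.25 ± 0.06 (SE) with a 95% interval of -0.38 to -0.13 (edgeR quasi-likelihood test, Benjamini-Hochberg adjusted p = 0.0140 over all tested genes). The deposited counts behind it were whole in every library, 715, 706 and 797 in BPAF and 829, 836 and 895 in DMSO, and no other annotated gene overlaps SIT1. DESeq2 (adjusted p = 0.0235, with 9.33% of its genes called) and limma-voom (0.0290, with 4.99% called) called it too. In edgeR without BPAF replicate 1 (adjusted p = 0.0853) or without DMSO replicate 3 (0.0672) the call was lost, with log2 fold changes of -0.23 and -0.20.

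So 1 of 10 members was called, in the lower direction, against a background of 6.06% of tested genes called, 3.40% of them called lower and 2.65% called higher as shares of all tested genes. A count of 1 in 10 is near that background and says nothing about the set as a whole. The median log2 fold change of the 10 members was -0.014, beside 0.0019 over all tested genes, and 7 of the 10 were below 0, beside 49.2% of all tested genes. Groups did not overlap in CPM for 2 members, SIT1 and LCK, beside 24.8% of all tested genes. Both were lower in BPAF, beside 12.8% of all tested genes that lay lower without overlap.

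**Figure D2:**
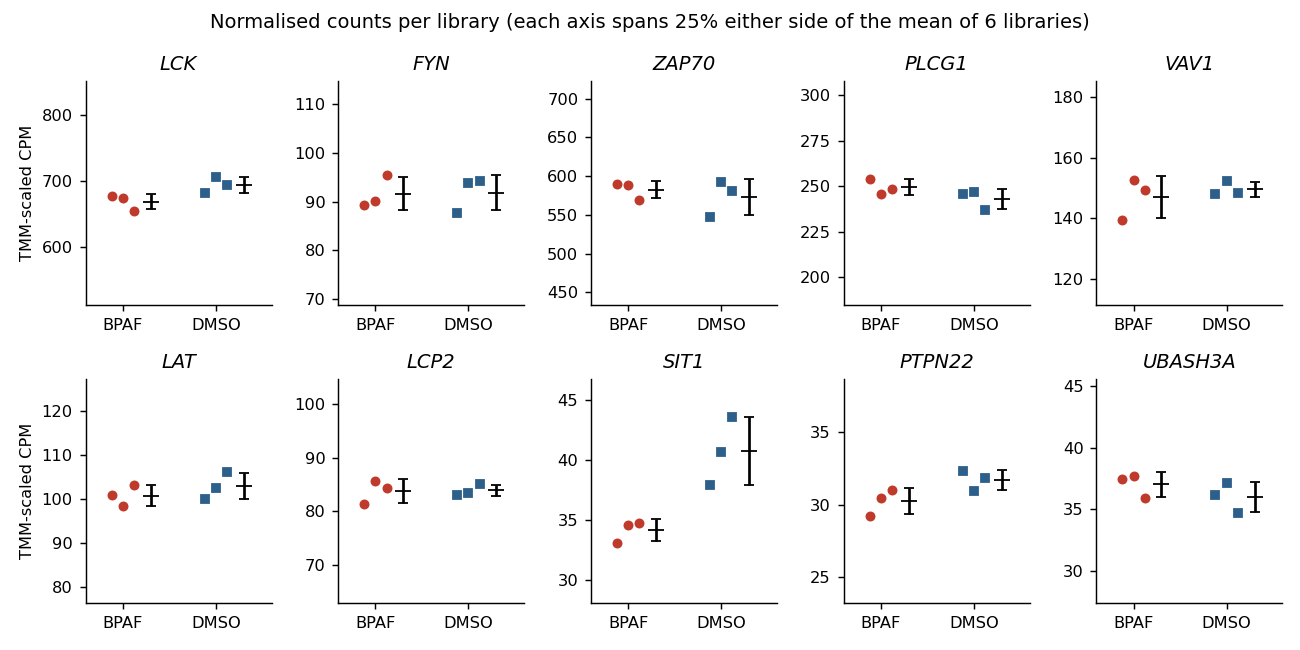
TMM-scaled CPM of each of the 10 genes, with BPAF libraries (circles) left of DMSO libraries (squares), and the mean with its SD (n = 3) as a bar beside each group. Each vertical axis spans the same relative distance and does not start at 0, so that panels can be compared. SIT1 shows the widest gap between groups, 34.1 against 40.7 CPM.

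LCK (ENSG00000182866, chr1:32251239-32286165, plus strand) had 677.5, 673.2 and 654.8 CPM in BPAF, against 682.1, 706.2 and 694.0 CPM in DMSO. The groups did not overlap, but the gap between the nearest libraries was small beside the spread within each group. The log2 fold change was -0.054 with a 95% interval of -0.11 to 0.0036, and it did not pass in edgeR (adjusted p = 0.288). FYN (ENSG00000010810, chr6:111660332-111873452, minus strand) had 89.3, 90.1 and 95.5 CPM in BPAF, against 87.6, 93.7 and 94.1 CPM in DMSO. These ranges overlap almost wholly, and the log2 fold change was -0.0017 (interval -0.089 to 0.085, edgeR adjusted p = 0.991). ZAP70 (ENSG00000115085, chr2:97713560-97739862, plus strand) had 589.9, 588.3 and 569.4 CPM in BPAF, against 547.3, 591.9 and 581.4 CPM in DMSO. One DMSO library was the lowest and another the highest of the 6, and the log2 fold change was 0.022 (interval -0.042 to 0.087, edgeR adjusted p = 0.763).

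Among the effectors, PLCG1 (ENSG00000124181, chr20:41136960-41196801, plus strand) had 254.3, 245.8 and 248.5 CPM in BPAF, against 245.6, 246.8 and 236.8 CPM in DMSO. The groups overlapped, with a log2 fold change of 0.038 (interval -0.024 to 0.0996, edgeR adjusted p = 0.532). VAV1 (ENSG00000141968, chr19:6772714-6857366, plus strand) had 139.3, 152.8 and 149.2 CPM in BPAF, against 148.0, 152.4 and 148.4 CPM in DMSO. BPAF replicate 1 was the lowest of the 6 libraries, and the log2 fold change was -0.024 (interval -0.0994 to 0.051, edgeR adjusted p = 0.784).

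The adaptors LAT and LCP2 did not pass either. LAT (ENSG00000213658, chr16:28984826-28990783, plus strand) had 100.9, 98.4 and 103.2 CPM in BPAF, against 100.2, 102.7 and 106.1 CPM in DMSO, a log2 fold change of -0.030 (interval -0.11 to 0.049). LCP2 (ENSG00000043462, chr5:170246237-170298227, minus strand) had 81.3, 85.7 and 84.2 CPM in BPAF, against 83.1, 83.5 and 85.1 CPM in DMSO, a log2 fold change of -0.0031 (interval -0.085 to 0.079). The groups overlapped for both.

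The phosphatase gene PTPN22 (ENSG00000134242, chr1:113813811-113871759, minus strand) had 29.2, 30.5 and 31.0 CPM in BPAF, against 32.3, 30.9 and 31.8 CPM in DMSO, a log2 fold change of -0.068 (interval -0.19 to 0.052). UBASH3A (ENSG00000160185, chr21:42403447-42447681, plus strand) had 37.5, 37.7 and 35.9 CPM in BPAF, against 36.1, 37.1 and 34.7 CPM in DMSO, a log2 fold change of 0.041 (interval -0.073 to 0.15). The groups overlapped for both, so of the 3 inhibitory genes 1 fell and 2 did not pass.

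Over the 9 members other than SIT1, every 95% interval included 0, and together the intervals ran from -0.19 to 0.15 on the log2 scale, or from -12.3% to 11.3%. The lowest limit was that of PTPN22 and the highest that of UBASH3A, and the other members had narrower intervals. Differences inside a member's own interval are not excluded by it. In edgeR, 0 of the 9 passed and 0 had an unadjusted p under 0.05, and none passed in DESeq2 (smallest adjusted p = 0.198, with none given for PTPN22), in limma-voom (0.238) or in any of the 6 edgeR fits with 1 library left out (0.305).

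On the deposited TPM scale the median of all genes was shifted upward. With limma on log2(TPM + 1), 9 of the 10 members had a fold change above 0, all but SIT1, but that median, over 14399 genes, was 0.079, and 5 members lay above it and 5 below. SIT1 had 49.2, 49.7 and 51.97 TPM in BPAF, against 54.1, 59.0 and 59.9 TPM in DMSO. Its groups did not overlap on this scale either, with a log2 fold change of -0.19 that did not pass in limma (adjusted p = 0.167), where 1 of 14399 genes was called (0.00694%). The sign of LCK (0.036), FYN (0.15), VAV1 (0.050), LAT (0.065), LCP2 (0.020) and PTPN22 (0.088) was positive on this scale and negative in counts. FYN, ZAP70, LAT and UBASH3A were higher in every BPAF library than in every DMSO library in TPM, beside 21.4% of all genes, and SIT1 was lower in every one, beside 3.65%. For LAT the nearest libraries almost met, at 120.28 TPM in BPAF and 120.19 TPM in DMSO, and its fold change lay below the median of all genes.

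**Figure D3:**
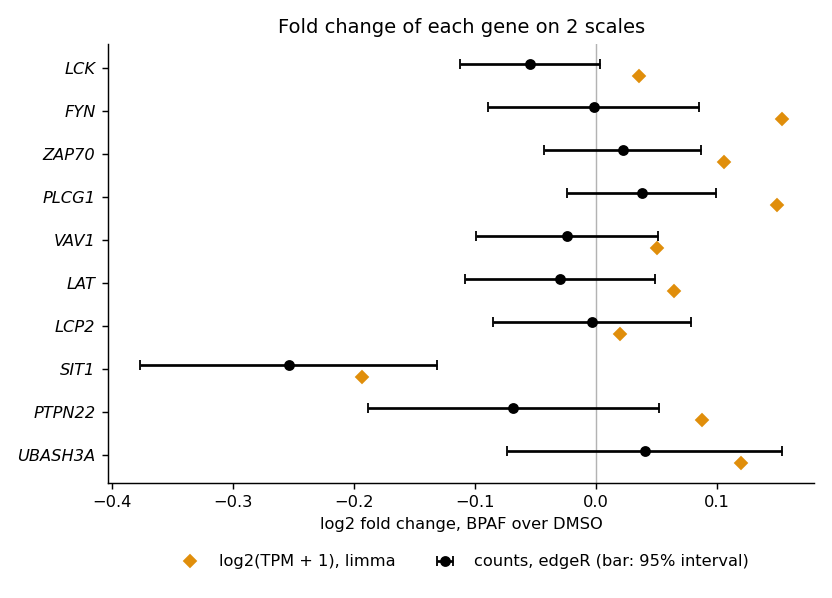
Log2 fold change (BPAF over DMSO) of the 10 genes from counts (circles, edgeR, with 95% interval) and from log2(TPM + 1) (diamonds, limma). SIT1 lies at -0.25 from counts and -0.19 from TPM, and it is the 1 gene below 0 on both scales.

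The count per TPM of a gene, taken relative to its library's median over 9576 well-covered genes, would be constant across libraries if 1 length had been used for each gene. It was nearly so for VAV1, UBASH3A, LCK, LAT, ZAP70 and SIT1, whose SD over the 6 libraries ran from 0.011 to 0.024 on the log2 scale, below the lower quartile of all 9576 genes, 0.026. Even so, SIT1 and VAV1 had a higher count per TPM in every BPAF library than in every DMSO library. The differences in mean were 0.036 for SIT1 and 0.016 for VAV1. For VAV1 the nearest libraries were close, at -0.0022 in BPAF replicate 1 and -0.0046 in DMSO replicate 3, centred on its own mean. The share of all genes so separated was not computed, so the separation cannot be called particular to SIT1 or VAV1. For PTPN22, PLCG1, LCP2 and FYN the SD was 0.069, 0.070, 0.079 and 0.091, above the median of 0.053. FYN spanned 0.25 between its extreme libraries, both of them BPAF: -0.15 in replicate 2 and 0.10 in replicate 3. For these 4 genes TPM and counts varied apart from each other between libraries, and the source of that was not tested. This measure was chosen after the data had been seen.

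**Figure D4:**
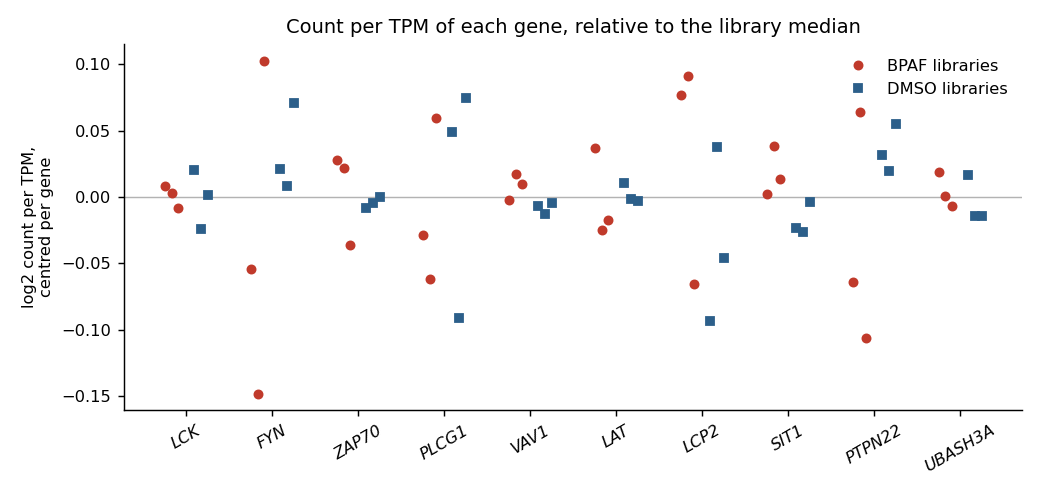
Log2 count per TPM relative to the library median, centred on each gene's mean, for the 10 genes in each library (circles BPAF, squares DMSO). FYN, LCP2, PLCG1 and PTPN22 spread widely over the 6 libraries, with an SD of 0.069 to 0.091, whereas LCK, VAV1 and UBASH3A stay near 0.

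Ratios within a library compare members free of the library total. SIT1, relative to LAT, the other transmembrane adaptor, stood at 40.9%, 41.1% and 40.1% in BPAF, against 47.3%, 49.1% and 50.1% in DMSO, by TPM. The groups did not overlap, and the log2 ratio differed by -0.26, or -0.22 by CPM (two-sided exact permutation p = 0.1, the smallest that 3 against 3 allows, and 0.2 after Benjamini-Hochberg adjustment over the 4 ratios computed). FYN relative to LCK was 15.5%, 16.8% and 15.2% in BPAF, against 14.5%, 14.6% and 14.6% in DMSO by TPM. These groups did not overlap (exact permutation p = 0.1, adjusted 0.2), but by CPM the log2 difference was 0.052 in place of 0.12, with an exact permutation p of 0.5, and FYN is the member whose count per TPM varied most. PTPN22 relative to its substrate LCK averaged 2.41 ± 0.19% in BPAF and 2.31 ± 0.12% in DMSO, and UBASH3A relative to ZAP70 averaged 7.32 ± 0.19% in BPAF and 7.22 ± 0.27% in DMSO. Both overlapped between the groups (exact permutation p = 0.6 each, adjusted 0.6).

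Around these members, few other genes of the receptor pathway passed. Of 81 tested genes reported from 5 lists of receptor chains, other kinases and their control, other adaptors, other negative regulators and downstream effectors, 1 rose and 0 fell in edgeR, beside 6.06% of all tested genes called, and 14 had an unadjusted p under 0.05, beside 19.9%. Groups did not overlap in CPM for 14 of the 81, beside 24.8%. Their median log2 fold change was -0.011. The call was among 16 tested negative regulators. DGKZ, a kinase that removes the diacylglycerol made by PLCG1, rose to 292.9, 292.6 and 282.1 CPM in BPAF, against 257.0, 280.9 and 254.3 CPM in DMSO, higher by 0.13 on the log2 scale (edgeR adjusted p = 0.0336). It did not pass in limma-voom (adjusted p = 0.0553), and leaving out 1 library at a time in edgeR kept its call in 1 of 6 fits (highest adjusted p = 0.167). Some of its deposited counts were not whole.

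In the receptor and coreceptor list 0 of 14 genes passed and 11 were below 0 (median log2 fold change -0.032). The zeta chain gene CD247 averaged 152.8 ± 3.04 CPM in BPAF and 159.4 ± 2.68 CPM in DMSO without overlap (edgeR adjusted p = 0.294), and TRBC2 had a log2 fold change of 0.089 (0.154). CD8A, at 0.69, 1.81 and 1.48 CPM in BPAF and 0.73 in each DMSO library, had 0.86 (0.181). CD247 was the 1 gene of the 14 without overlap, beside 24.8% of all tested genes. Of 8 other kinases and their controllers 0 passed, the smallest p belonging to PTPRC (the phosphatase CD45, which opens the inhibitory site of LCK; -0.097, adjusted p = 0.0888), PTPN2 (a phosphatase of SRC and JAK family kinases; -0.082, 0.231) and PTPRJ (the receptor phosphatase CD148; 0.49, 0.355). The level of PTPRJ was low, at 1.76, 1.32 and 2.22 CPM in BPAF and 0.96, 1.41 and 1.41 CPM in DMSO.

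Of 19 other adaptors 0 passed. Those with the smallest p were SH2D1A (the adaptor SAP; log2 fold change -0.099, edgeR adjusted p = 0.0739), FYB1 (a partner of LCP2; -0.071, 0.167) and GRAP2 (which links LAT to LCP2; -0.075, 0.174). SH2D1A, FYB1 and GRAP2 were each lower in every BPAF library than in every DMSO library, beside 12.8% of all tested genes, and they were named for their small p. Groups did not overlap in either direction for 5 of the 19, beside 24.8% of all tested genes. With TPM the signs of CD247, PTPRC, PTPN2, FYB1 and GRAP2 were positive. The remaining negative regulators SH2B3 (0.13, 0.146), DOK2 (-0.14, 0.374) and DGKA (0.058, 0.398) did not pass in edgeR. Downstream of PLCG1 and VAV1, 0 of 24 genes passed, with 12 above and 12 below 0. The smallest p were those of CDC42 (-0.086, edgeR adjusted p = 0.108), NRAS (-0.13, 0.119) and MAPK3 (-0.13, 0.159).

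**Figure D5:**
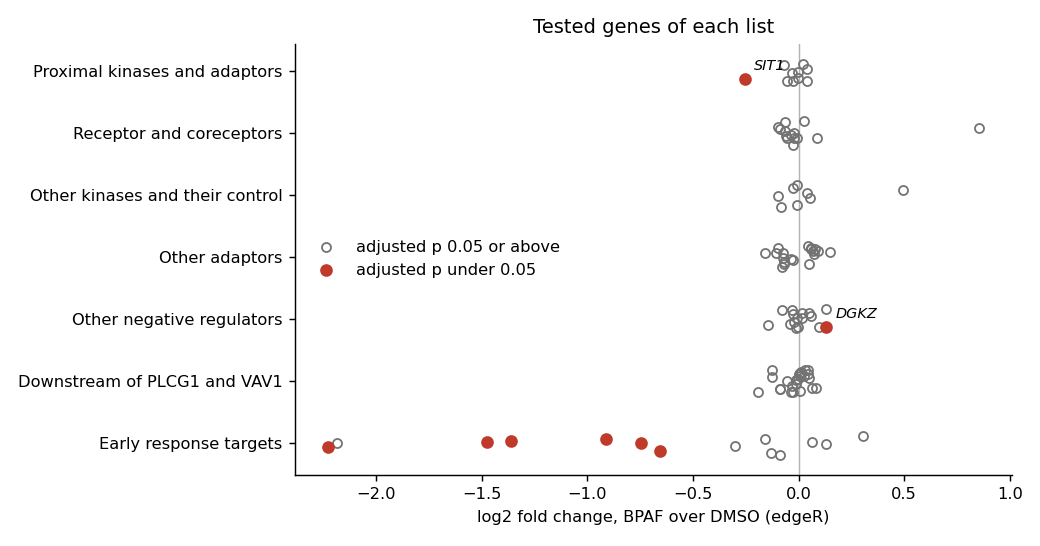
Log2 fold change (edgeR, BPAF over DMSO) of every tested gene reported from the 10-gene set and from 6 lists of related genes. Filled points passed at an adjusted p under 0.05. SIT1 and DGKZ are the 2 that passed outside the early response list, in which 6 of 14 passed.

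Early response genes, which receptor signalling and other stimuli switch on, are listed beside the pathway, although the labels name no stimulation of the receptor. Of 14 tested, 6 fell and 0 rose, beside 3.40% of all genes called lower, with a median log2 fold change of -0.48. The list was chosen with earlier results of these data known, so this count is a description. Whether it reflects receptor signalling was not tested. FOS (-2.23), JUN (-0.91), DUSP2 (-0.75), IER2 (-0.66), FOSB (-1.36) and EGR3 (-1.47) were the 6, and in edgeR leaving out 1 library at a time lost the call of EGR3 in 6, of IER2 in 5 and of FOSB in 4 of 6 refits. FOS, FOSB and EGR3, with the largest falls, did not reach 10 counts in every library. All 6 were called in limma-voom, but DESeq2 gave an adjusted p for IER2 alone (1.5e-13). With limma on log2(TPM + 1), where 1 of 14399 genes was called, FOS and IER2 (adjusted p = 0.0907 each), JUN (0.103) and DUSP2 (0.0879) did not pass. FOSB and EGR3 fell below the filter there.

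The genes whose levels followed SIT1 most closely over the 6 libraries, by the root mean square difference of centred log2 CPM among 11778 other genes, were TRIAP1 (0.028), SNHG15 (0.030) and PPP1R15A (0.031). TRIAP1 encodes a small mitochondrial and p53-regulated survival protein, SNHG15 a non-coding RNA that hosts small nucleolar RNA, and PPP1R15A a phosphatase subunit of the stress response. Their log2 fold changes were -0.27, -0.25 and -0.31. They were picked for this likeness, so these values are a description.

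Overlapping annotations touched 4 of the 10 members with counts above 0 in the partner. The largest was ZHX3, on the strand opposite PLCG1, at 55.2 CPM in BPAF and 53.0 CPM in DMSO, or 22.0% of the level of PLCG1. AC109460.3 overlaps LAT on the same strand at 5.41% of its level, AP4B1-AS1 lies opposite PTPN22 at 6.23% and PLCG1-AS1 opposite PLCG1 at 1.19%. C5orf58, RPL23AP81 and AL137856.1 ranged from 0 to 1.00 CPM. Deposited counts were not whole in every library for LAT, PLCG1 and PTPN22. The libraries were strand-specific per the labels, and no label or header states whether the counting used strand.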

How the data were processed

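Per the submitters' processing notes, FastQC, cutadapt, HISAT2 and featureCounts were used with the builds GRCh38 and hg38; per the labels' protocols, poly(A) RNA was made into stranded paired-end libraries. The deposited estimated counts carried decimals in 8796 to 9728 of 60856 rows per library, of which 192 held no Ensembl identifier (0.243% to 0.271% of counts). The TPM values were deposited by the authors in a second table. How decimals and TPM arose is not stated in labels or headers. Symbols were found for 42028 identifiers, and coordinates came from GENCODE release 29.

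Estimated counts were rounded and passed through filterByExpr, with TMM scaling, to edgeR 4.0.16 (quasi-likelihood, robust, R 4.3.3), with Benjamini-Hochberg adjustment over 15490 genes and a threshold of 0.05. The SE was the log2 fold change over the square root of F, with 95% intervals from the fitted degrees of freedom. The biological coefficient of variation was 3.77%. TPM were tested with limma 3.58.1 after adding 1, in genes with at least 1 TPM in 3 libraries. Alternatives included limma-voom, DESeq2 1.42.0, other scalings and filters, a replicate block and each library left out. Ratios used exact permutation tests (Python 3.11.15). The edgeR fit was checked on simulated counts, where the share of false calls lay above the threshold at each fold simulated and many genes with the smallest fold, close to that of SIT1, were missed. All library pairs differed beyond sampling noise, with a chi-square of 2.37 to 7.77 for each degree of freedom. Replicates are biological per the design text, with nothing further on their cultures.

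Members, lists and tests were chosen with earlier results of these data known. A few genes of the lists are not reported here and are left out of list counts, and the fit across all genes is unaffected. Named genes were the 10 members, those of each pathway list past the threshold plus the 3 with the next smallest p, the early response genes past the threshold, overlapping genes, and the 3 genes most like the member with the smallest p (mean log2 CPM at least 1). Count per TPM used genes with at least 100 counts and 5 TPM in every library. Promoter motifs were chosen after the data had been seen.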

Additional observations from a re-analysis of the deposited data

How the results depend on the processing

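SIT1 kept its direction under every alternative and its call in all count-based fits other than 2 with a library left out. The 938 calls over all genes became 1 with TPM + 1, 2 with TPM + 0.1 and 0 with TPM + 1 and no filter, and 322 to 861 with a library left out (322 without BPAF replicate 1, 392 without BPAF replicate 3, 482 without DMSO replicate 1). They were 411 higher and 527 lower in edgeR, 461 and 400 with upper quartile scaling, and 164 and 467 in DESeq2. Calls among the 10 members were 0 in each TPM fit and 0 to 1 with a library left out. Calls among pathway genes (1 in the fit reported) were 3 without the low-count filter (DGKZ higher, PTPRC and NRAS lower, adjusted p = 0.0298 and 0.0245 in edgeR), 0 in limma-voom, 0 in each TPM fit and 0 to 1 with a library left out (NRAS, lower, without DMSO replicate 1, and DGKZ without DMSO replicate 2). The ratio differences moved to 0.052 (FYN over LCK) and -0.22 (SIT1 over LAT) with CPM.

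On the TPM scale (TPM + 1 with and without the filter, then TPM + 0.1), log2 fold changes turned positive for LCK (0.036, 0.036), FYN (0.154, 0.156), VAV1 (0.0503, 0.0508), LAT (0.0649, 0.0654), LCP2 (0.0204, 0.0206), PTPN22 (0.088, 0.0937), CD247 (0.0114, 0.0115), PTPRC (0.060, 0.0604), PTPN2 (0.0126, 0.0127), FYB1 (0.0801, 0.081), GRAP2 (0.0986, 0.0992) and MAPK3 (0.033, 0.0335); the median of all genes there was 0.079, and the cause was not tested. Near 0, signs also turned with upper quartile scaling and with at least 10 counts in every library for FYN (0.00909, 0.00185) and LCP2 (0.00774, 0.000513), and with a library left out for FYN (-0.036 to 0.016), ZAP70 (-0.011 to 0.042), VAV1 (-0.053 to 0.013) and LCP2 (-0.020 to 0.017).

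Same-numbered BPAF and DMSO libraries did not deviate together (correlations -0.043 to 0.014), and 1 of 6 libraries correlated best with its own number. No pairing by number was seen in these values, which cannot show that the cultures were unpaired. With the replicate as a block, 826 genes were called and SIT1 had a log2 fold change of -0.25 (adjusted p = 0.0145 in edgeR), and IER2 (0.160) and EGR3 (0.0677) were not called, which leaves 4 of the 6 early response calls. With 3 libraries a group, differences inside a member's interval are not excluded, and intervals cover only the spread between these libraries.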
